A study of Homo sapiens with 12 samples.

Results

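The comparison described here sets 3 libraries labelled naive RUES2 against 3 labelled primed RUES2, 6 of the 12 RNA-seq libraries of a study of naive and primed human pluripotent stem cells. RUES2 is an established line of human embryonic stem cells. Members were the genes that reached 1 FPKM in at least 3 of the 6 libraries, which held for 13839 of 23590 gene symbols on the main chromosomes, and 13838 of them were tested. FPKM is a fragment count scaled by transcript length and by the mapped fragments of the library, so levels can be set side by side between genes. The primed cells, at passages 30 to 33, grew on mouse embryonic fibroblast feeders in serum replacement medium with 4 ng/mL bFGF. The cells labelled naive, at passages 24 to 26, grew in a serum-free medium of 5 mM glucose with 20 ng/mL LIF, 18 µg/mL insulin, the MEK inhibitor PD0325901 at 1 µM and the GSK3 inhibitor CHIR99021 at 3 µM. Colonies were picked by hand in both states, and the labels call the replicates biological without saying whether they came from separate cultures, so p-values cover the spread among these libraries, which may be technical.

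In a check for mixed-up samples, 3 of the 6 libraries did not match the others of their line label, and no H9 library failed that check. State and line can therefore not be told apart in these 6 libraries, each direction below is that of libraries as labelled, and leaving those 3 libraries out leaves no comparison. For that reason the counts of the gene lists are set beside those of the same comparison in H9, another established line, whose 3 naive and 3 primed libraries share none with these. All 10 markers of human embryonic stem cells that were checked were read in each of the 6 libraries, with the lowest value at 458 FPKM for POU5F1 and at 7.47 FPKM for CDH1. The files hold no read counts. The width of the deposited FPKM bounds implies a median of 47.8 to 82.8 fragments behind a gene at 1 to 2 FPKM in the 6 libraries. Short RNAs are here those of loci under 300 bases or of microRNA and other small RNA genes. Short RNAs took 35.2% to 40.4% of all FPKM in the primed libraries and 44.3% to 47.6% in those labelled naive. Their part in the results was not tested beyond the rescaling alternative in the closing section.

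Naive pluripotent cells stand for the epiblast before implantation, and primed cells for the epiblast after it. Primed human cells depend on FGF and activin signalling. The medium of the naive cells blocks MEK, the kinase above ERK, and blocks GSK3, the kinase that marks beta-catenin for destruction, so that beta-catenin can act with TCF and LEF factors on WNT target genes. LIF acts through the receptor chain gp130 and the transcription factor STAT3. Levels of DNA methylation, the balance of glycolysis and respiration, and the shape of the colonies also distinguish the states in earlier work.

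Of the 13838 genes, 6143 (44.4%) were called at a Benjamini-Hochberg adjusted p under 0.05 in limma. The libraries labelled naive were higher for 3091 genes (22.3%) and lower for 3052 (22.1%), and the median log2 change over all genes was 0.02. A change of at least 1 log2 unit was called for 782 genes higher and 1027 lower, and of at least 2 for 160 and 186. The levels of the groups did not overlap for 57.9% of genes, with the libraries labelled naive above for 29.6% and below for 28.3%. Log2 changes are on the scale of log2(FPKM + 1), which understates the change of genes near 1 FPKM. The filter keeps a gene that reaches 1 FPKM in only 1 of the states, as 362 genes did in the libraries labelled naive alone and 568 in the primed libraries alone. In H9 5635 of the same genes (40.7%) were called, 2493 higher (18.0%) and 3142 lower (22.7%). Counts of called list members below are to be read beside the shares of all genes, 22.3% higher and 22.1% lower. Sample values below are given in the order of replicates 1, 2 and 3.

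**Figure D1:**
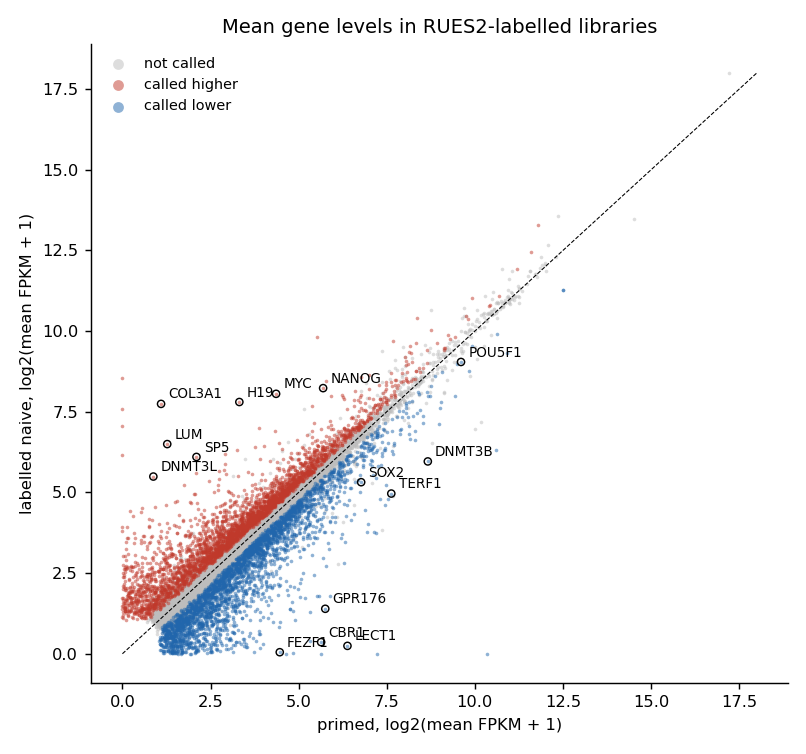
Mean level of each gene in the 3 primed libraries (x axis) against the 3 libraries labelled naive (y axis), both RUES2-labelled, as log2(mean FPKM + 1), with called genes in colour and the dashed line at equal levels. COL3A1, LUM, SP5 and DNMT3L lie far above the line, and LECT1, CBR1, FEZF1 and GPR176 far below it.

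The genes of general pluripotency moved mostly down. Among 20 such genes, each measured, 4 rose and 13 fell, with a median log2 change of -0.84. H9 gave 1 higher and 10 lower. POU5F1, which encodes OCT4, stood at 791, 666 and 880.3 FPKM in the primed libraries and 534, 587 and 458 in those labelled naive (log2 change -0.56, SE 0.14, adjusted p = 0.0198). The groups did not overlap, but its call was lost without primed replicate 1, without primed replicate 3, without naive replicate 1 and without naive replicate 3 (adjusted p = 0.054 to 0.061). SOX2, the partner of OCT4 on DNA, had 104, 136 and 85.6 FPKM in the primed libraries and 39.1, 34.04 and 43.5 in those labelled naive (log2 change -1.44, SE 0.18, adjusted p = 0.00153). NANOG, another core factor, went the other way, with 55.9, 33.2 and 63.4 FPKM in the primed libraries and 248, 459 and 193 in those labelled naive (log2 change 2.49, SE 0.37, adjusted p = 0.00273). Replicate 2 of the naive label held the highest NANOG level and the groups lay far apart. In H9 the same gene moved by -0.76 (adjusted p = 0.0451), and the difference between the responses was called (adjusted p = 0.00441). Reads of POU5F1 and NANOG can be shared with processed pseudogenes, so their levels are uncertain to that extent.

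The strongest fall of the group was that of TERF1, a telomere-binding protein abundant in human embryonic stem cells. Its levels were 203, 185 and 203 FPKM in the primed libraries and 33.9, 25.8 and 31.00 in those labelled naive (log2 change -2.67, SE 0.11, adjusted p = 5.7e-05), close to the change in H9 of -2.57. FOXO1, a forkhead factor under insulin control, fell from 14.7 ± 1.07 to 4.301 ± 0.826 FPKM (mean ± SD, n = 3 per group, as in all pairs of means below; log2 change -1.58, adjusted p = 0.000383). ZFP42, or REX1, also fell, from 71.1 ± 10.02 to 35.4 ± 4.63 FPKM (log2 change -0.98, SE 0.14, adjusted p = 0.00234), while its change in H9 was -0.11 (adjusted p = 0.256). TDGF1, the NODAL co-receptor CRIPTO, fell with a log2 change of -1.49 (adjusted p = 0.0083). PRDM14, a repressor that guards pluripotency, fell from 71.97 ± 15.4 to 41.9 ± 3.18 FPKM (adjusted p = 0.0116), although its call was lost in a fit of all 12 libraries (adjusted p = 0.0589). The other risers were NODAL and its relatives GDF3 and LEFTY2. NODAL, the secreted ligand of the activin branch, read 19.1, 10.8 and 27.6 FPKM in the primed libraries and 159, 104 and 90.6 in those labelled naive (log2 change 2.61, SE 0.35, adjusted p = 0.00201). GDF3, a related ligand, rose from 22.5 ± 10.1 to 64.97 ± 18.9 FPKM (adjusted p = 0.0181), though its call was lost without naive replicate 1 (adjusted p = 0.059).

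Markers of the naive state gave a split picture. Of 30 genes listed, 19 passed the filter, and of those 8 rose and 2 fell, beside 10 and 2 in H9. Of the 19, 2 passed through the libraries labelled naive alone, KLF2 and SUSD2, and 1 through the primed libraries alone. The count that fell was 1 without primed replicate 1, 1 without naive replicate 2 and 1 without naive replicate 3. DNMT3L, an inactive partner that helps de novo DNA methyltransferases, changed most, with 1.199, 0.308 and 1.005 FPKM in the primed libraries and 74.7, 32.1 and 25.3 in those labelled naive (log2 change 4.49, SE 0.41, adjusted p = 0.000533). FGF4, an autocrine growth factor of the epiblast, showed 3.88, 1.86 and 2.72 FPKM in the primed libraries and 19.4, 11.3 and 12.97 in those labelled naive (log2 change 2.02, SE 0.26, adjusted p = 0.00158). KLF2, a Krüppel-like factor of the mouse naive network, read 0.144, 0.203 and 0.0579 FPKM in the primed libraries and 2.11, 1.55 and 3.41 in those labelled naive (log2 change 1.53, SE 0.20, adjusted p = 0.00194). SUSD2, a surface protein used to sort naive human cells, rose from 0.698 ± 0.134 to 4.18 ± 1.36 FPKM (adjusted p = 0.00137). NLRP7, a maternal-effect gene, rose from 3.21 ± 2.16 to 17.7 ± 9.21 FPKM (adjusted p = 0.0156). TFAP2C, an AP-2 factor, rose from 10.6 ± 2.58 to 18.3 ± 2.19 FPKM (adjusted p = 0.0162), but its call was lost in a fit of all 12 libraries (adjusted p = 0.145) and without naive replicate 1 (adjusted p = 0.0572).

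Several defining naive genes stayed near 0 or were not called. KLF17, a factor of the human preimplantation epiblast, was at most 0.0497 FPKM in any of the 6 libraries. ESRRB, an orphan nuclear receptor, was at most 0.0747 FPKM, and KHDC3L, a maternal-effect gene, at most 0.302 FPKM. TFCP2L1, a target of STAT3 in mouse cells, read 1.21, 0.754 and 0.802 FPKM in the primed libraries and 1.06, 0.456 and 0.449 in those labelled naive, under the filter. KLF4 had 3.65, 3.34 and 2.12 FPKM in the primed libraries and 6.24, 3.599 and 4.04 in those labelled naive, KLF5 had 3.03, 2.46 and 2.23 FPKM in the primed libraries and 5.66, 3.46 and 3.41 in those labelled naive, and neither Krüppel-like factor was called (adjusted p = 0.133 and 0.0673). DPPA3, or STELLA, varied more within the groups than between them, at 7.804, 2.37 and 4.12 FPKM in the primed libraries and 11.4, 4.79 and 2.98 in those labelled naive (adjusted p = 0.648). DPPA5, an RNA-binding protein, did so too, at 2.12, 0.461 and 2.66 FPKM in the primed libraries and 2.17, 0.547 and 1.03 in those labelled naive (adjusted p = 0.646). Of 16 genes that mark the 8-cell stage of the human embryo, none passed the filter, and together they summed to 1.77 to 2.07 FPKM in the primed libraries and 1.94 to 2.78 in those labelled naive.

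Primed markers mostly fell. Of the 26 that passed the filter, 2 of them through the primed libraries alone, 17 fell and 3 rose, with a median of -1.55, beside 18 and 4 in H9. NLGN4X, a synaptic adhesion protein, dropped from 28.6 ± 3.495 to 1.05 ± 0.344 FPKM (log2 change -3.86, SE 0.15, adjusted p = 4.73e-05). USP44, a deubiquitinase of histone H2B, dropped from 54.4 ± 6.69 to 5.65 ± 0.148 FPKM (log2 change -3.05, SE 0.10, adjusted p = 3.2e-05). DNMT3B, the main de novo DNA methyltransferase of primed cells, measured 418, 439.6 and 358 FPKM in the primed libraries and 71.3, 55.7 and 56.9 in those labelled naive (log2 change -2.71, SE 0.13, adjusted p = 8.13e-05). THY1, the surface antigen CD90, measured 60.7, 51.1 and 107 FPKM in the primed libraries and 9.83, 6.91 and 16.6 in those labelled naive (log2 change -2.62, SE 0.37, adjusted p = 0.00228). OTX2, a homeobox factor of the later epiblast, fell from 63.8 ± 20.4 to 16.01 ± 4.51 FPKM (log2 change -1.91, adjusted p = 0.00244). In each of these 5 genes the highest library labelled naive lay under the lowest primed library. ZIC2, a zinc finger factor, was not called, at 26.8, 63.6 and 26.9 FPKM in the primed libraries and 30.97, 26.00 and 35.05 in those labelled naive (adjusted p = 0.611), and primed replicate 2 stood apart. SFRP2, a secreted WNT antagonist, overlapped between the groups and was not called, at 55.4, 83.98 and 99.5 FPKM in the primed libraries and 59.8, 47.7 and 60.97 in those labelled naive (adjusted p = 0.132). The 3 risers of the primed list were NEFL, VIM and CDH2, and NEFL, a neurofilament, rose from 5.72 ± 0.988 to 41.7 ± 13.6 FPKM (log2 change 2.63, SE 0.23, adjusted p = 0.000475).

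**Figure D2:**
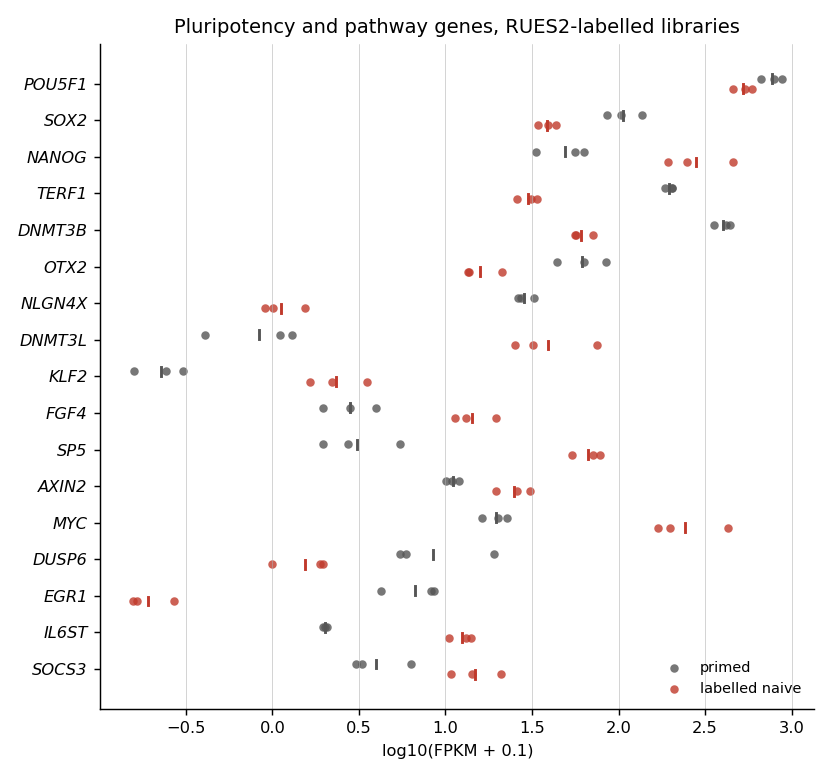
Level of pluripotency, WNT, ERK and LIF genes in each RUES2-labelled library as log10(FPKM + 0.1) on the x axis, with grey points for primed, red points for libraries labelled naive and bars at the mean of the log values. NANOG, DNMT3L, SP5, MYC and IL6ST lie to the right in the libraries labelled naive, and TERF1, DNMT3B, NLGN4X, DUSP6 and EGR1 to the left.

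Direct targets of beta-catenin mostly rose. Of 25 that passed the filter, 6 of them through the libraries labelled naive alone, 20 rose and 0 fell in limma, and the median was 1.85. At an unadjusted p under 0.05, 0 were lower. H9 gave 21 higher, 1 lower and a median of 2.54. TCF and LEF factors bind a core of the letters CTTTGA, so the RefSeq promoters of SP5 and DKK1 are shown with that core in capitals on either strand, over the 250 bases before the transcription start in GRCh38.p14.
SP5 (chr2:170715087-170715336, + strand): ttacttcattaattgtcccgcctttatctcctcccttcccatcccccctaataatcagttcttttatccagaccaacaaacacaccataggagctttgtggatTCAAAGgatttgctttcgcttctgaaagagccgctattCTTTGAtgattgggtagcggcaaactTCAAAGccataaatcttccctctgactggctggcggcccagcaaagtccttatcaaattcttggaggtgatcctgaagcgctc
DKK1 (chr10:52314031-52314280, + strand): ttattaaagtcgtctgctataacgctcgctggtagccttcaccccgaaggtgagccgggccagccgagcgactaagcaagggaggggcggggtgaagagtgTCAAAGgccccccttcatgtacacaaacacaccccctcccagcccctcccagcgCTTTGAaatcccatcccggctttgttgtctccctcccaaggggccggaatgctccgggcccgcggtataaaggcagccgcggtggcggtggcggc
SP5 held 3 matches and DKK1 held 2. RefSeq gave a promoter for 13 of the 20 target genes called higher, and 6 of their 17 promoters (35.3%) held CTTTGA or its reverse complement TCAAAG, beside 11.2% of all 35114 promoters in the table. The match describes letters in a window and no binding was measured.

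SP5, a zinc finger repressor induced by WNT, read 1.86, 2.63 and 5.38 FPKM in the primed libraries and 71.2, 53.6 and 78.1 in those labelled naive (log2 change 4.07, SE 0.30, adjusted p = 0.000274). DKK1, a secreted WNT antagonist that is itself a target, read 1.25, 1.86 and 2.74 FPKM in the primed libraries and 32.6, 17.3 and 26.6 in those labelled naive (log2 change 3.15, SE 0.27, adjusted p = 0.000426). Both groups of values stood apart for each gene. CDX1, a caudal homeobox factor, went from 0.225 ± 0.221 to 18.4 ± 7.17 FPKM (log2 change 3.93, SE 0.30, adjusted p = 0.000308). T, or brachyury, the T-box factor of the primitive streak, went from 1.07 ± 0.652 to 15.2 ± 4.96 FPKM (log2 change 2.96, SE 0.31, adjusted p = 0.0008). MIXL1, a homeobox gene of the streak, read 3.07, 2.801 and 13.8 FPKM in the primed libraries and 90.97, 57.02 and 66.1 in those labelled naive (log2 change 3.54, SE 0.53, adjusted p = 0.0028), and its log2 change was 4.17 without primed replicate 3. LEF1, a partner of beta-catenin on DNA, rose from 0.937 ± 0.197 to 7.54 ± 1.48 FPKM (log2 change 2.13, SE 0.15, adjusted p = 0.000242). AXIN2, the feedback scaffold of the destruction complex, showed 11.9, 10.03 and 10.9 FPKM in the primed libraries and 25.7, 19.6 and 30.6 in those labelled naive (log2 change 1.12, SE 0.16, adjusted p = 0.0026). Its rise was smaller than in H9, where it was 2.50, and the difference was called (adjusted p = 0.00738).

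MYC, a growth-promoting transcription factor and textbook WNT target, moved in opposite directions under the RUES2 and H9 labels. It measured 22.5, 16.2 and 19.9 FPKM in the primed libraries and 199, 427 and 169 in those labelled naive (log2 change 3.58, SE 0.34, adjusted p = 0.000605), with the highest value again in naive-labelled replicate 2. In H9 MYC moved by -0.99 (adjusted p = 0.0247), and the difference was called (adjusted p = 0.000928). In the MYC family and its partners, MYC included, 4 of 11 measured genes rose and 1 fell, beside 1 higher and 1 lower in H9. The risers numbered 2 without primed replicate 1. MAX, the obligate partner, rose from 13.4 ± 0.519 to 23.5 ± 4.34 FPKM (adjusted p = 0.00575). MYCN, the family member of early embryonic cells, fell from 33.5 ± 4.91 to 15.7 ± 3.26 FPKM (adjusted p = 0.00384). MLX, a MAX-like factor, rose by 0.68 (adjusted p = 0.0162), and its call was lost without primed replicate 1, without naive replicate 1 and without naive replicate 2 (adjusted p = 0.052 to 0.0559).

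Upstream of these targets, WNT ligands, receptors and antagonists went both ways. Of 27 that passed the filter, 4 of them through the libraries labelled naive alone, 11 rose and 7 fell, with H9 at 10 and 9. The count that fell was 4 without naive replicate 3. WLS, the carrier that brings WNT proteins to the cell surface, rose from 8.57 ± 0.155 to 78.6 ± 20.02 FPKM (log2 change 3.03, SE 0.17, adjusted p = 0.000125). The ligand WNT8A rose from 0.534 ± 0.177 to 11.5 ± 2.13 FPKM (log2 change 3.02, SE 0.16, adjusted p = 9.78e-05) and the ligand WNT5B from 1.08 ± 0.826 to 11.5 ± 4.53 FPKM (log2 change 2.58, SE 0.36, adjusted p = 0.00232). Among receptors FZD10 rose by 2.51, while FZD7 and FZD5 fell with log2 changes of -1.65 and -1.15 (adjusted p = 0.000404, 0.000738 and 0.0138). For FZD5, its call was lost without primed replicate 1 (adjusted p = 0.0501). In the destruction complex and its nuclear partners 4 of 22 rose and 5 fell, shares near the 22.3% and 22.1% of all genes. The counts in H9 were 4 higher and 5 lower. PYGO1 was the 1 member that passed the filter through the libraries labelled naive alone. CTNNB1, which encodes beta-catenin itself, was not called (log2 change -0.09, adjusted p = 0.51), nor was GSK3B (log2 change 0.05, adjusted p = 0.686). TCF7L1, the main repressor of WNT targets in pluripotent cells, fell from 45.2 ± 8.39 to 16.7 ± 2.21 FPKM (log2 change -1.38, SE 0.15, adjusted p = 0.000953). TCF7L2 fell from 17.6 ± 2.41 to 5.902 ± 0.449 FPKM (log2 change -1.43, SE 0.12, adjusted p = 0.000397). PYGO1, a nuclear cofactor, rose from 0.485 ± 0.278 to 3.89 ± 0.958 FPKM (log2 change 1.72, SE 0.20, adjusted p = 0.00118).

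Genes downstream of MEK and ERK did not move as one group. Of 23 measured, 5 rose and 6 fell, near the shares of 22.3% and 22.1% over all genes, and the risers were 3 without naive replicate 1 and 3 without naive replicate 3. H9 gave 4 higher and 12 lower. EGR1 was the 1 member that passed the filter through the primed libraries alone. EGR1, an immediate early factor, showed the deepest fall, with 8.51, 8.14 and 4.15 FPKM in the primed libraries and 0.0561, 0.1701 and 0.06397 in those labelled naive (log2 change -2.80, SE 0.24, adjusted p = 0.000426). DUSP6, the phosphatase that switches ERK off, read 5.79, 5.36 and 18.9 FPKM in the primed libraries and 1.78, 0.897 and 1.86 in those labelled naive (log2 change -1.94, SE 0.45, adjusted p = 0.0143), and primed replicate 3 was the highest. SPRY4, a Sprouty feedback inhibitor, read 9.04, 4.96 and 19.3 FPKM in the primed libraries and 5.53, 3.55 and 4.98 in those labelled naive and was not called (adjusted p = 0.123). ETV4, an ETS factor induced by FGF, read 26.05, 19.1 and 56.1 FPKM in the primed libraries and 30.5, 21.4 and 21.6 in those labelled naive and was not called (adjusted p = 0.521). IER3, an early response gene, rose from 7.17 ± 2.81 to 31.4 ± 7.57 FPKM (log2 change 2.02, SE 0.30, adjusted p = 0.00262), beside 0.30 in H9, and that difference was called (adjusted p = 0.0229).

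FGF genes moved both ways. Across 16 ligands, receptors and adaptors that passed the filter, 6 rose and 4 fell, beside 5 higher and 5 lower in H9. FGF18 was the 1 member that passed through the libraries labelled naive alone. FGF8, a ligand of the primitive streak, rose from 5.499 ± 1.93 to 32.6 ± 4.13 FPKM (log2 change 2.40, SE 0.21, adjusted p = 0.00047), and FGF18 from 0.292 ± 0.165 to 5.605 ± 1.36 FPKM (log2 change 2.34, SE 0.19, adjusted p = 0.000335). FGF11, an intracellular member that is not secreted, fell from 18.1 ± 5.803 to 3.11 ± 0.2299 FPKM (log2 change -2.17, SE 0.24, adjusted p = 0.000957). FGF2, the factor added to the primed medium, fell with a log2 change of -1.88 (adjusted p = 0.000476). The receptors FGFR1 and FGFR2 fell with -1.11 and -0.99 (adjusted p = 0.00576 and 0.0105), and FGFR3 and FGFR4 were not called (-0.48 and -0.29; adjusted p = 0.18 and 0.0552).

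The LIF and STAT3 pathway moved up in larger part. Of 20 measured genes 11 rose and 1 fell, against 6 and 1 in H9. The faller count was 2 without primed replicate 2 and 0 without naive replicate 1. Of the 20, 1 passed the filter through the libraries labelled naive alone. IL6ST, the gp130 chain of the LIF receptor, read 1.96, 1.85 and 1.91 FPKM in the primed libraries and 13.9, 10.3 and 13.02 in those labelled naive (log2 change 2.20, SE 0.12, adjusted p = 0.000125). SOCS3, the feedback inhibitor induced by STAT3, read 3.198, 2.94 and 6.24 FPKM in the primed libraries and 14.2, 10.6 and 20.8 in those labelled naive (log2 change 1.67, SE 0.31, adjusted p = 0.00635). Neither gene's groups overlapped. GBX2, a homeobox target of STAT3 in mouse cells, rose from 0.702 ± 0.392 to 14.6 ± 2.72 FPKM (log2 change 3.21, SE 0.20, adjusted p = 0.000179). JUNB, an AP-1 subunit, rose from 1.65 ± 0.388 to 7.56 ± 1.06 FPKM (log2 change 1.70, SE 0.15, adjusted p = 0.000484). STAT3 itself rose by 0.45 and LIFR, the other receptor chain, by 0.88 (adjusted p = 0.00684 and 0.00164).

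In the NODAL and activin pathway 6 of 23 genes rose and 4 fell, near the shares of 22.3% and 22.1% over all genes, beside 4 higher and 5 lower in H9. FST, the activin-binding protein follistatin, rose from 29.7 ± 7.41 to 98.4 ± 31.1 FPKM (log2 change 1.68, SE 0.26, adjusted p = 0.0033), less than in H9 at 3.47 (difference adjusted p = 0.0317). In the BMP pathway 8 of 20 rose and 5 fell, with the risers 4 without primed replicate 2, 4 without primed replicate 3 and 5 without naive replicate 1. Of the 20, 1 passed the filter through the libraries labelled naive alone and 2 through the primed libraries alone. H9 gave 8 and 0. MSX1, a homeobox target of BMP, rose from 0.538 ± 0.401 to 9.94 ± 4.04 FPKM (log2 change 2.80, SE 0.30, adjusted p = 0.000866). HAND1, a bHLH factor of extraembryonic and cardiac mesoderm, rose from 2.78 ± 1.96 to 25.1 ± 12.3 FPKM (log2 change 2.82, SE 0.54, adjusted p = 0.00727). ID4, one of the inhibitors of DNA binding that BMP induces, fell from 8.84 ± 3.43 to 1.497 ± 0.678 FPKM (log2 change -1.95, SE 0.33, adjusted p = 0.00434), and ID1 fell too, with a log2 change of -1.23 (adjusted p = 0.00785). SMAD9, a BMP-activated SMAD, rose from 0.657 ± 0.415 to 3.39 ± 1.28 FPKM (log2 change 1.39, SE 0.26, adjusted p = 0.00647), beside -0.04 in H9.

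Of the 40 gene lists, that of epithelial junctions and keratins had the largest share of members called lower. All 30 listed genes passed the filter, 5 of them through the primed libraries alone. Of these 23 fell and 0 rose at adjusted p under 0.05 in limma, with a median of -1.39, and 0 were higher at an unadjusted p under 0.05. H9 had 21 lower and 4 higher. CDH1, or E-cadherin, the adhesion protein of epithelial junctions, read 82.9, 82.05 and 71.1 FPKM in the primed libraries and 13.9, 7.47 and 8.88 in those labelled naive (log2 change -2.88, SE 0.21, adjusted p = 0.00025). CLDN7, a tight junction claudin, read 47.7, 56.2 and 47.8 FPKM in the primed libraries and 10.98, 5.95 and 3.71 in those labelled naive (log2 change -2.81, SE 0.32, adjusted p = 0.00107). EPCAM, an epithelial surface antigen, read 165, 116 and 152 FPKM in the primed libraries and 63.8, 35.1 and 29.5 in those labelled naive (log2 change -1.79, SE 0.29, adjusted p = 0.00374). In these 3 genes every library labelled naive was under every primed library. CLDN4 fell from 13.6 ± 4.39 to 0.626 ± 0.143 FPKM (log2 change -3.12, SE 0.23, adjusted p = 0.000281) and CLDN3 from 9.34 ± 1.67 to 0.245 ± 0.0464 FPKM (log2 change -3.04, SE 0.13, adjusted p = 6.44e-05), both claudins. PKP3, a desmosomal plakophilin, fell from 9.78 ± 2.49 to 0.373 ± 0.197 FPKM (log2 change -2.95, SE 0.20, adjusted p = 0.000228). GRHL2, a transcription factor that maintains epithelia, fell from 7.399 ± 0.878 to 0.121 ± 0.0513 FPKM (log2 change -2.90, SE 0.11, adjusted p = 4.75e-05). The simple keratins KRT8 and KRT18 were not called, at 0.66 and 0.43 (adjusted p = 0.154 and 0.373), and KRT8 has many processed copies.

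Repressors of the epithelial state, SNAI2, ZEB1, ZEB2 and TWIST1 among them, bind E-boxes, and the ZEB and SNAI factors bind the form CACCTG. The promoter of CLDN7 is shown with that E-box, or its reverse complement CAGGTG, in capitals, since it holds 4 matches in 250 bases.
CLDN7 (chr17:7262479-7262728, - strand): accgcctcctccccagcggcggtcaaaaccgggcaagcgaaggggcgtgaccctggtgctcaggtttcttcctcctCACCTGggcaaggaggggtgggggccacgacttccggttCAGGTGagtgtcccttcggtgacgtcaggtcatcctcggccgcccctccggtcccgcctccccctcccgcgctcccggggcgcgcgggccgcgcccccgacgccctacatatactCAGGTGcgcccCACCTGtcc
RefSeq gave a promoter for 13 of the 23 epithelial genes that fell, and 9 of their 21 promoters (42.9%) held the E-box, beside 17.5% of all promoters in the table. CLDN7 has 2 annotated starts, of which 1 is shown. By gene, 8 of the 13 held a match in at least 1 promoter. The match describes letters in a window, no binding was measured, and repression of these genes by the factors was not tested. The levels of SNAI2, ZEB1, ZEB2 and TWIST1 were higher in the libraries labelled naive. Each of these genes passed the filter through those libraries alone, so their rises are not independent of it. TWIST1 read 0.331, 0.402 and 0.572 FPKM in the primed libraries and 18.3, 23.5 and 18.8 in those labelled naive (log2 change 3.88, SE 0.13, adjusted p = 3.2e-05), and more than in H9 at 1.37 (difference adjusted p = 0.00719). SNAI2 read 0.109, 0.1102 and 0.615 FPKM in the primed libraries and 5.83, 3.11 and 9.797 in those labelled naive (log2 change 2.42, SE 0.36, adjusted p = 0.00268). ZEB1 rose from 0.148 ± 0.00983 to 2.74 ± 0.303 FPKM and ZEB2 from 0.523 ± 0.318 to 4.19 ± 0.5398 FPKM (log2 changes 1.70 and 1.78, adjusted p = 0.000156 and 0.000605).

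Across mesenchymal transition genes 13 of 19 that passed the filter rose and 1 fell, beside 11 and 1 in H9. Of the 19, 5 passed through the libraries labelled naive alone. The faller, TWIST2, a relative of TWIST1, lost its call when any of the 6 libraries other than primed replicate 2 was left out, and without that library 2 genes fell. VIM, the intermediate filament vimentin, read 92.3, 94.8 and 135 FPKM in the primed libraries and 345, 334 and 462 in those labelled naive (log2 change 1.82, SE 0.19, adjusted p = 0.000802). MMP2, a matrix metalloprotease, rose from 14.04 ± 5.78 to 65.3 ± 16.3 FPKM (log2 change 2.17, SE 0.30, adjusted p = 0.00207). Fibroblast markers moved with this group: 17 of 23 rose and 1, THY1, fell, with 3 of the 23 passing the filter through the libraries labelled naive alone. The fallers numbered 2 without primed replicate 2 and 2 without naive replicate 3, and H9 gave 16 higher and 2 lower. The levels of the fibroblast markers summed to 445 to 753 FPKM in the primed libraries and 575 to 1889 in those labelled naive, so the ranges overlapped, and the part of fibroblast RNA in the results was not tested. COL3A1, a fibrillar collagen, read 0.706, 0.3099 and 2.399 FPKM in the primed libraries and 109.6, 85.5 and 445 in those labelled naive (log2 change 6.37, SE 0.66, adjusted p = 0.000802), the largest rise among genes at 5 FPKM or more in either state, short RNAs left out. LUM, the proteoglycan lumican, read 1.700, 1.23 and 1.31 FPKM in the primed libraries and 38.7, 22.6 and 207 in those labelled naive (log2 change 4.59, SE 0.75, adjusted p = 0.00387), and DCN, or decorin, rose from 0.0911 ± 0.0618 to 11.1 ± 12.3 FPKM (log2 change 3.00, SE 0.63, adjusted p = 0.0102). Naive-labelled replicate 3 held the highest level of all 3 stromal genes. For COL3A1, its log2 change was 5.64 without naive replicate 3. For LUM, its log2 change was 5.24 without naive replicate 2 and 3.67 without naive replicate 3. For DCN, its log2 change was 2.20 without naive replicate 3. In bulk RNA, more cells of a type and more RNA per cell cannot be told apart.

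HOX genes, which pattern the body axis and are silent in undifferentiated cells, were higher in the libraries labelled naive. Of 31 listed, 21 passed the filter, and 20 of those passed through the libraries labelled naive alone, so that the 21 called higher, with 0 called lower in limma and 0 lower at an unadjusted p under 0.05, are not a count independent of the filter. Over all 31, 29 had each library labelled naive above each primed library. In H9 15 of the 21 were called higher and 0 lower. Summed HOX levels were 1.47 to 4.94 FPKM in the primed libraries and 82.96 to 102 in those labelled naive. HOXB1, at the 3' end of its cluster, read 0.342, 0.207 and 0.207 FPKM in the primed libraries and 8.18, 8.25 and 12.9 in those labelled naive (log2 change 3.08, SE 0.18, adjusted p = 0.000144). HOXB2 rose from 0.785 ± 0.511 to 11.5 ± 4.07 FPKM (log2 change 2.80, SE 0.31, adjusted p = 0.000998). HOXD13, at the other end of the HOXD cluster, read 0.0326, 0 and 0.0197 FPKM in the primed libraries and 6.24, 10.1 and 5.39 in those labelled naive (log2 change 2.98, SE 0.21, adjusted p = 0.000228). HOXB1 rose less than in H9 (4.76, difference adjusted p = 0.00785) and HOXD13 more (1.12, difference adjusted p = 0.00358). HOXD10, a neighbour of HOXD13, rose by 2.40, beside 0.07 in H9 (difference adjusted p = 0.00293).

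Mesendoderm markers rose for 14 of 16 measured and fell for 1, TBX6. Of the 16, 4 were measured through the libraries labelled naive alone and 1 through the primed libraries alone. H9 gave 12 and 0. Besides T, MIXL1, CDX1 and WNT8A, this held for APLNR, the apelin receptor of early mesoderm, which rose from 1.83 ± 1.84 to 25.2 ± 10.7 FPKM (log2 change 3.31, SE 0.50, adjusted p = 0.00304). EOMES, a T-box factor of the streak, rose by 2.01 (adjusted p = 0.00414). Definitive endoderm markers fell for 5 of 13 and rose for 2, beside 1 higher and 4 lower in H9. The risers, SOX17 and GATA6, numbered 0 without primed replicate 1, 0 without primed replicate 2, 1 without primed replicate 3, 0 without naive replicate 1, 1 without naive replicate 2 and 1 without naive replicate 3. The fallers numbered 3 without naive replicate 2. FOXA3, a forkhead factor of gut endoderm, fell from 14.2 ± 1.19 to 2.22 ± 0.4900 FPKM (log2 change -2.25, SE 0.13, adjusted p = 0.000153). HHEX, a homeobox gene of anterior endoderm, fell from 5.17 ± 2.44 to 0.965 ± 0.252 FPKM (log2 change -1.58, SE 0.29, adjusted p = 0.00574). KIT, a receptor tyrosine kinase, fell from 10.1 ± 3.004 to 2.97 ± 0.791 FPKM (log2 change -1.46, SE 0.23, adjusted p = 0.00355). TTR, the carrier transthyretin, fell from 6.18 ± 3.75 to 1.13 ± 0.796 FPKM (adjusted p = 0.0156), and its call was lost without naive replicate 2 (adjusted p = 0.0518).

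Markers of primitive endoderm rose for 11 of 16 and fell for 0 in limma, with 0 lower at an unadjusted p under 0.05. The risers numbered 5 without primed replicate 1, 7 without primed replicate 2, 6 without primed replicate 3 and 5 without naive replicate 1, and 7 after rescaling without short RNAs, beside 10 higher and 1 lower in H9. The list holds basement membrane genes that fibroblasts also express. Of the 17 genes listed, 8 were highest in naive-labelled replicate 3, as the stromal genes above were, and 9 in naive-labelled replicate 1. GATA4, a zinc finger factor of the lineage, rose from 3.72 ± 0.585 to 9.52 ± 2.72 FPKM (log2 change 1.13, SE 0.22, adjusted p = 0.00736). COL4A2, a basement membrane collagen, rose from 25.9 ± 1.94 to 67.6 ± 19.4 FPKM (log2 change 1.32, SE 0.19, adjusted p = 0.00267) and NID2, or nidogen 2, from 0.997 ± 0.0576 to 8.76 ± 6.28 FPKM (log2 change 2.09, SE 0.43, adjusted p = 0.00911). SPARC, a matrix protein, read 70.4, 60.5 and 89.96 FPKM in the primed libraries and 185, 113 and 483 in those labelled naive (log2 change 1.56, SE 0.50, adjusted p = 0.0439), and its call was lost with no filter on low values, after rescaling without short RNAs, after quantile normalization, with robust variances, without primed replicate 1, without primed replicate 2, without primed replicate 3 and without naive replicate 1 (adjusted p = 0.051 to 0.111).

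Trophectoderm markers were called for 3 higher and 2 lower of 10 that passed, beside 5 higher and 2 lower in H9. Of the 10, 2 passed the filter through the libraries labelled naive alone and 2 through the primed libraries alone. KRT7, a keratin of trophoblast, fell from 7.53 ± 1.54 to 0.354 ± 0.263 FPKM (log2 change -2.66, SE 0.20, adjusted p = 0.000265), and GATA3, a trophoblast factor, from 2.59 ± 1.55 to 0.304 ± 0.0654 FPKM (log2 change -1.38, SE 0.28, adjusted p = 0.00864). CDX2, which marks trophectoderm and also the posterior streak, rose from 0.305 ± 0.234 to 4.62 ± 2.36 FPKM (log2 change 2.04, SE 0.31, adjusted p = 0.00308). Of amnion markers 4 of 8 rose, 3 of the 8 having passed through the libraries labelled naive alone, and 0 fell in limma. At an unadjusted p under 0.05 1 was lower, and the count that fell was 1 without naive replicate 3. H9 gave 6 and 0. ISL1, a homeobox factor of the amnion, rose from 0.629 ± 0.293 to 2.16 ± 0.801 FPKM (adjusted p = 0.015), POSTN, or periostin, by 1.69 (adjusted p = 0.0067), and the cadherin CDH10 by 1.68 (adjusted p = 0.00119). These 3 passed the filter through the libraries labelled naive alone, so their rises are not independent of it. In H9 POSTN and CDH10 rose by 1.68 and 1.18, and ISL1 was not called (0.07). BAMBI, the other riser, overlapped between the groups (log2 change 0.98, adjusted p = 0.0372). Its call was lost with no filter on low values (adjusted p = 0.0603) and without some single libraries (adjusted p = 0.0933 to 0.108).

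Of neural ectoderm markers 7 of 21 passed the filter, and the libraries labelled naive lay above the primed libraries without overlap for 8 of the 21 listed. PAX6 and SOX1 were among those that did not. For 4 of the 21 listed the libraries labelled naive lay below the primed libraries without overlap. Over all genes tested they lay above for 29.6% and below for 28.3%. Of the 7, 4 rose and 0 fell in limma, with 0 lower at an unadjusted p under 0.05, and H9 gave 4 and 1. OLIG3 was the 1 member that passed the filter through the libraries labelled naive alone. The risers were OLIG3, a bHLH factor of the neural plate, from 0.736 ± 0.239 to 10.03 ± 3.47 FPKM (log2 change 2.63, SE 0.23, adjusted p = 0.00045), MAP2, a neuronal microtubule protein, by 2.39, FABP7, a fatty acid carrier of radial glia, by 2.17, and TUBB3, a neuronal tubulin, by 1.74 (adjusted p = 0.000886, 0.0048 and 0.00226). Neural crest markers rose for 7 and fell for 4 of 14, of which 5 passed the filter through the libraries labelled naive alone and 4 through the primed libraries alone, beside 7 higher and 4 lower in H9. NR2F1, an orphan nuclear receptor, rose from 0.119 ± 0.0683 to 7.45 ± 3.72 FPKM (log2 change 2.83, SE 0.28, adjusted p = 0.00068), beside 0.69 in H9, and that difference was called (adjusted p = 0.00719). FOXD3, which acts in both crest and primed cells, fell with a log2 change of -2.20 (adjusted p = 0.00071).

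**Figure D3:**
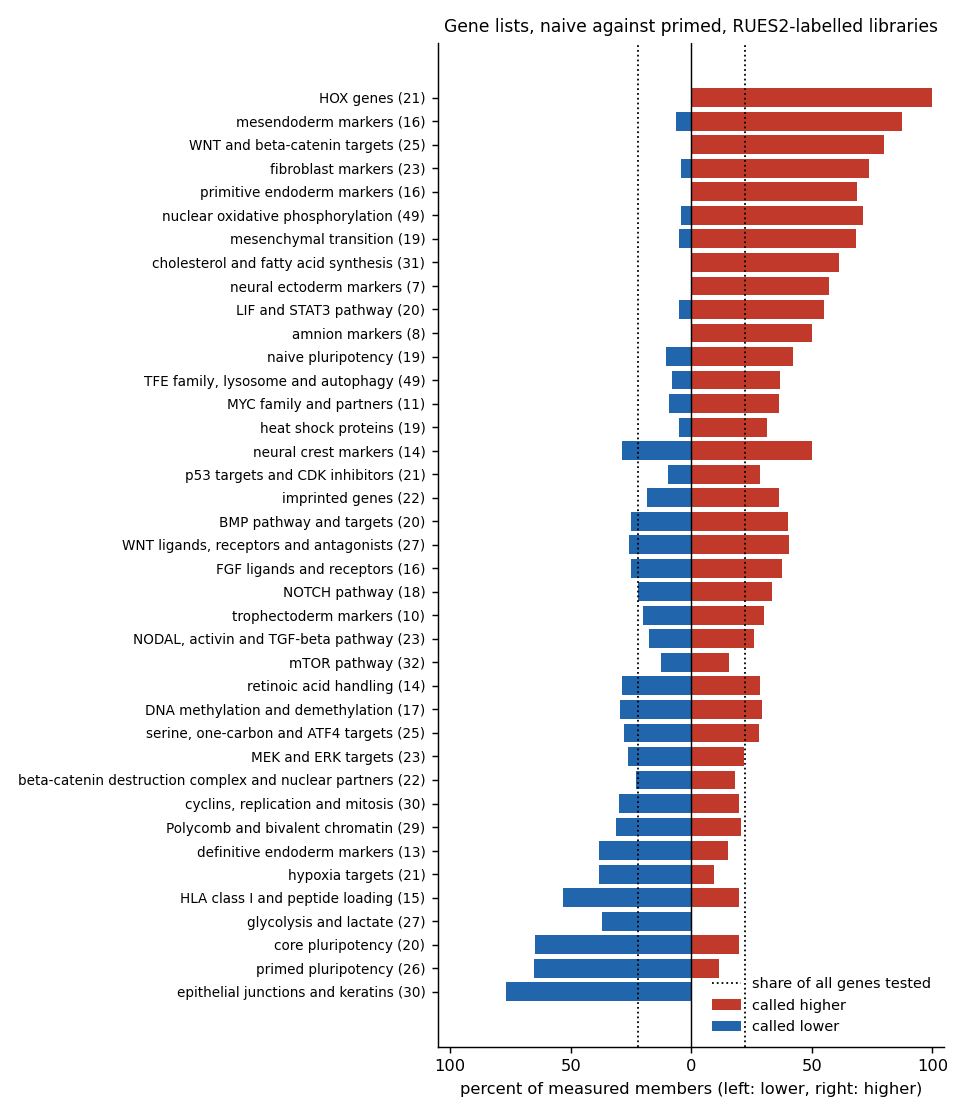
Share of the measured members of each gene list called higher (right, red) or lower (left, blue) in libraries labelled naive RUES2, with the number measured in parentheses and dotted lines at the shares of all genes tested, 22.3% and 22.1%. HOX genes, mesendoderm markers and WNT targets lie far to the right, and epithelial, primed and core pluripotency genes to the left. For several lists, HOX foremost, members passed the filter through 1 state alone.

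Metabolic groups differed in direction. Of 27 glycolysis and lactate genes 10 fell and 0 rose in limma at adjusted p under 0.05, and 2 were higher at an unadjusted p under 0.05. The fallers numbered 5 without primed replicate 1, 5 without naive replicate 1, 6 without naive replicate 2 and 5 without naive replicate 3, and the risers 1 without primed replicate 1 and 1 without primed replicate 3. H9 gave 7 and 1. ALDOC, an aldolase, read 43.9, 35.6 and 35.6 FPKM in the primed libraries and 11.4, 13.2 and 11.1 in those labelled naive (log2 change -1.61, SE 0.11, adjusted p = 0.000237). ENO2, the neuronal enolase, fell from 67.5 ± 17.4 to 28.7 ± 4.25 FPKM (log2 change -1.19, SE 0.20, adjusted p = 0.00419). SLC2A1, the glucose transporter GLUT1, fell from 135 ± 66.5 to 55.6 ± 9.61 FPKM (adjusted p = 0.0321), but its call was lost with no filter on low values, without primed replicate 1, without naive replicate 1, without naive replicate 2 and without naive replicate 3 (adjusted p = 0.0532 to 0.096). SLC16A3, a lactate exporter, fell from 28.1 ± 11.5 to 9.101 ± 3.804 FPKM (adjusted p = 0.0214), but its call was lost without primed replicate 1, without primed replicate 2, without naive replicate 1 and without naive replicate 2 (adjusted p = 0.0622 to 0.0678). GAPDH, the most used reference enzyme of the path, was not called (log2 change -0.11, adjusted p = 0.527).

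Nuclear genes of oxidative phosphorylation showed small rises in many members. Of 49 measured 35 rose and 2 fell, with a median log2 change of 0.34. The risers numbered 21 without naive replicate 1 and 26 after quantile normalization. The fallers numbered 1 without primed replicate 1, 1 without primed replicate 3, 1 without naive replicate 1 and 1 without naive replicate 3. H9 gave 18 and 2 with a median of 0.20. COX7B, a subunit of cytochrome oxidase, read 293, 265 and 287 FPKM in the primed libraries and 697, 605 and 639 in those labelled naive (log2 change 1.20, SE 0.09, adjusted p = 0.000274). NDUFB3, of complex I, rose from 45.1 ± 7.09 to 78.9 ± 2.86 FPKM (log2 change 0.81, SE 0.12, adjusted p = 0.00303), and ATP5J, of the ATP synthase, from 113 ± 7.24 to 188 ± 9.804 FPKM (log2 change 0.73, SE 0.08, adjusted p = 0.000957). COX7C, another subunit of cytochrome oxidase, went down, with 1686, 1471 and 1598 FPKM in the primed libraries and 943, 1003 and 936 in those labelled naive (log2 change -0.72, SE 0.10, adjusted p = 0.00209). COX7B and COX7C have near-identical processed copies in the genome, so their levels are uncertain.

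Cholesterol and fatty acid synthesis genes rose for 19 of 31, and 0 fell in limma, with 0 lower at an unadjusted p under 0.05 and a median of 0.69. In a fit of all 12 libraries 13 rose. In H9 the counts were 2 and 0, though the difference between the line labels was called in limma for 1 member alone, PMVK, a kinase of the mevalonate path (RUES2 minus H9 0.57, adjusted p = 0.033). NSDHL, a sterol dehydrogenase, read 16.1, 18.98 and 27.6 FPKM in the primed libraries and 51.4, 47.2 and 52.8 in those labelled naive (log2 change 1.27, SE 0.19, adjusted p = 0.00265). MVD, of the mevalonate path, rose from 26.1 ± 11.1 to 55.2 ± 4.16 FPKM (adjusted p = 0.0144), and its call was lost without primed replicate 1 (adjusted p = 0.0514). HMGCS1, the synthase at the head of the path, rose from 45.2 ± 17.9 to 87.8 ± 7.29 FPKM (adjusted p = 0.0224), and its call was lost in a fit of all 12 libraries, without primed replicate 2, without naive replicate 1 and without naive replicate 3 (adjusted p = 0.0571 to 0.121). Primed replicate 3 held the highest level of the primed libraries in NSDHL, MVD and HMGCS1.

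Hypoxia targets fell for 8 of 21 and rose for 2, with fallers numbering 5 without primed replicate 1, 4 without naive replicate 1 and 4 without naive replicate 2. The risers numbered 1 without primed replicate 1, 1 without primed replicate 3, 1 without naive replicate 1 and 1 without naive replicate 2, beside 2 higher and 7 lower in H9. EGLN3, an oxygen-sensing hydroxylase, fell from 26.4 ± 8.095 to 6.32 ± 2.27 FPKM (log2 change -1.90, SE 0.30, adjusted p = 0.00357). BNIP3L, a mitophagy receptor, fell from 28.2 ± 9.696 to 8.84 ± 1.68 FPKM (log2 change -1.52, SE 0.27, adjusted p = 0.00505), and ADM, the peptide adrenomedullin, from 45.2 ± 7.47 to 16.1 ± 5.24 FPKM (log2 change -1.46, SE 0.24, adjusted p = 0.00393). LOX, a collagen cross-linking enzyme that stands among the fibroblast markers too, rose from 1.08 ± 0.3900 to 8.15 ± 6.33 FPKM (log2 change 1.94, SE 0.45, adjusted p = 0.0137). Serine, one-carbon and ATF4 target genes rose for 7 and fell for 7 of 25, the risers being 4 without primed replicate 1. The counts in H9 were 7 and 8. SLC7A3, a transporter of cationic amino acids, fell from 87.9 ± 10.97 to 16.7 ± 2.76 FPKM (log2 change -2.34, SE 0.14, adjusted p = 0.000158), while SLC7A5, the large neutral amino acid transporter, rose from 109 ± 28.5 to 256 ± 30.8 FPKM (log2 change 1.26, SE 0.19, adjusted p = 0.00317). CHAC1, a glutathione-degrading enzyme, fell from 36.1 ± 10.4 to 14.6 ± 1.14 FPKM (log2 change -1.22, SE 0.20, adjusted p = 0.00375), and VLDLR, a lipoprotein receptor, with a log2 change of -1.10 (adjusted p = 0.0044).

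The study concerns a naive state reached through transient mTOR inhibition, and no mTOR inhibitor is named among the components of the medium. mTOR pathway genes were called higher for 5 and lower for 4 of 32, both shares under those of all genes. The risers were 1 without primed replicate 1, 3 without primed replicate 3, 1 without naive replicate 1, 1 without naive replicate 2 and 2 without naive replicate 3, and 1 after rescaling without short RNAs. MTOR itself was not called, at 17.9, 21.4 and 17.9 FPKM in the primed libraries and 16.1, 17.3 and 15.5 in those labelled naive (adjusted p = 0.121). DDIT4, or REDD1, a stress-induced inhibitor of mTORC1, read 173, 276 and 80.2 FPKM in the primed libraries and 36.6, 40.2 and 32.5 in those labelled naive (log2 change -2.08, SE 0.41, adjusted p = 0.00824), with no overlap. DDIT4L, its relative, fell from 4.201 ± 1.09 to 1.61 ± 0.513 FPKM (log2 change -0.99, SE 0.21, adjusted p = 0.00973). AKT1S1, the mTORC1 subunit PRAS40, rose from 20.96 ± 2.34 to 38.6 ± 4.61 FPKM (log2 change 0.85, SE 0.12, adjusted p = 0.00228). GATSL3, an arginine sensor of the path, fell from 4.28 ± 0.0714 to 2.04 ± 0.7803 FPKM (log2 change -0.82, SE 0.18, adjusted p = 0.0112). H9 gave 1 higher and 6 lower.

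Lysosome and autophagy genes under TFE factors rose for 18 of 49 and fell for 4, beside 21 and 6 in H9. GPNMB was the 1 member that passed the filter through the libraries labelled naive alone. TFE3, one of those factors, fell from 23.02 ± 2.33 to 16.02 ± 1.42 FPKM (log2 change -0.50, SE 0.11, adjusted p = 0.0104), beside 0.16 in H9 (difference adjusted p = 0.032). GPNMB, a lysosomal glycoprotein, rose from 0.406 ± 0.129 to 2.58 ± 0.896 FPKM (log2 change 1.32, SE 0.20, adjusted p = 0.00291), and CTSH, a cathepsin, fell from 7.67 ± 1.37 to 3.095 ± 0.905 FPKM (log2 change -1.09, SE 0.20, adjusted p = 0.00578). CTSF, another cathepsin, read 17.7, 21.6 and 16.6 FPKM in the primed libraries and 6.82, 5.12 and 6.84 in those labelled naive (log2 change -1.43, SE 0.14, adjusted p = 0.00069), whereas in H9 it rose by 2.07 (adjusted p = 0.000852). The difference for CTSF was called (adjusted p = 0.000156).

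Genes that write, read or erase DNA methylation were called higher for 5 and lower for 5 of 17, beside 3 higher and 5 lower in H9. The shares over all genes were 22.3% and 22.1%. Those higher were 3 without primed replicate 1, 3 without primed replicate 3, 3 without naive replicate 1 and 3 without naive replicate 3, and 3 after rescaling without short RNAs or with size factors. The opposite moves of DNMT3L and DNMT3B, given above, were the largest. HELLS, a remodeller needed for DNA methylation, read 25.6, 26.8 and 26.9 FPKM in the primed libraries and 12.5, 10.5 and 11.9 in those labelled naive (log2 change -1.12, SE 0.08, adjusted p = 0.000286), a deeper fall than in H9 at -0.35 (difference adjusted p = 0.00635). TET1, a demethylating dioxygenase, fell from 16.02 ± 3.54 to 8.55 ± 1.32 FPKM (log2 change -0.82, SE 0.18, adjusted p = 0.0108). DNMT1, the maintenance methyltransferase, fell with a log2 change of -0.27 (adjusted p = 0.0357), and its call was lost in a fit of all 12 libraries, without the variance trend, without primed replicate 2, without primed replicate 3, without naive replicate 1 and without naive replicate 3 (adjusted p = 0.0506 to 0.121). Of 29 Polycomb genes 6 rose and 9 fell, against the same 22.3% and 22.1% of all genes. The counts in H9 were 5 higher and 9 lower. Of the 29, 1 passed the filter through the primed libraries alone. PHC1, a polyhomeotic subunit of the first complex, read 155, 148 and 165 FPKM in the primed libraries and 28.9, 25.1 and 27.1 in those labelled naive (log2 change -2.49, SE 0.08, adjusted p = 3.2e-05). PHC2, its paralog, rose from 8.52 ± 2.43 to 23.3 ± 1.98 FPKM (log2 change 1.38, SE 0.18, adjusted p = 0.00177). BMI1, another subunit of that complex, rose from 2.04 ± 1.25 to 8.07 ± 1.09 FPKM (log2 change 1.66, SE 0.31, adjusted p = 0.00619), and JARID2, a cofactor of the second complex, fell from 60.5 ± 8.96 to 22.2 ± 3.23 FPKM (log2 change -1.40, SE 0.15, adjusted p = 0.000821). EZH2, the methyltransferase of the second complex, was not called (log2 change 0.24, adjusted p = 0.0851).

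Imprinted genes were called higher for 8 and lower for 4 of 22 that passed, of 29 listed, beside 9 higher and 3 lower in H9. Of the 22, 1 passed through the libraries labelled naive alone and 2 through the primed libraries alone. H19, a maternally expressed long RNA, read 7.03, 3.81 and 16.1 FPKM in the primed libraries and 145, 78.4 and 444 in those labelled naive (log2 change 4.31, SE 0.71, adjusted p = 0.00401), with the highest level in naive-labelled replicate 3, and its log2 change was 3.63 without naive replicate 3. IGF2, the paternally expressed growth factor beside it, read 1.24, 0.335 and 1.12 FPKM in the primed libraries and 13.1, 9.31 and 44.9 in those labelled naive (log2 change 3.35, SE 0.55, adjusted p = 0.00407), and its log2 change was 2.71 without naive replicate 3. The same library was highest in COL3A1, LUM and DCN, as given above. PLAGL1, a zinc finger growth regulator, rose from 0.464 ± 0.0878 to 6.04 ± 1.798 FPKM (log2 change 2.23, SE 0.20, adjusted p = 0.000492). SNRPN, of the Prader-Willi region, read 523, 491 and 553 FPKM in the primed libraries and 229, 201 and 229.7 in those labelled naive (log2 change -1.24, SE 0.09, adjusted p = 0.000255), and MAGEL2 of the same region fell from 1.87 ± 0.548 to 0.0882 ± 0.0237 FPKM (log2 change -1.38, SE 0.15, adjusted p = 0.000888).

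Of 15 HLA class I and peptide-loading genes that passed the filter, 8 fell and 3 rose, beside 10 and 1 in H9. Of the 15, 3 passed through the primed libraries alone and 1 through the libraries labelled naive alone. PSMB8, an immunoproteasome subunit, read 6.84, 8.77 and 7.83 FPKM in the primed libraries and 0.0451, 0 and 0.103 in those labelled naive (log2 change -3.07, SE 0.12, adjusted p = 4.32e-05). TAP1 and TAP2, the peptide transporter, fell from 4.47 ± 0.778 to 0.238 ± 0.275 FPKM and from 5.09 ± 0.659 to 0.236 ± 0.206 FPKM (log2 changes -2.16 and -2.31, adjusted p = 0.000426 and 0.000207). B2M, the light chain, went up from 41.98 ± 4.89 to 143 ± 33.9 FPKM (log2 change 1.72, SE 0.19, adjusted p = 0.00102), where H9 moved by -0.19 (difference adjusted p = 0.00271).

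Among p53 targets and CDK inhibitors 6 of 21 rose and 2 fell, the fallers being 1 without primed replicate 1, 1 without naive replicate 1 and 1 without naive replicate 2. H9 had 5 and 2. CDKN2A, which encodes p16 and ARF, read 1.55, 1.36 and 1.17 FPKM in the primed libraries and 17.3, 35.4 and 17.03 in those labelled naive (log2 change 3.28, SE 0.28, adjusted p = 0.000401), a rise larger than in H9 at 1.34 (difference adjusted p = 0.0252). CDKN1A, or p21, read 10.96, 3.68 and 11.7 FPKM in the primed libraries and 34.4, 41.2 and 56.9 in those labelled naive (log2 change 2.31, SE 0.41, adjusted p = 0.00521). BTG2, an antiproliferative p53 target, rose from 4.299 ± 0.482 to 16.1 ± 1.73 FPKM (log2 change 1.69, SE 0.11, adjusted p = 0.000221). Of 30 cyclin, replication and mitosis genes 6 rose and 9 fell, against 22.3% and 22.1% of all genes. The fallers numbered 5 without primed replicate 1 and 5 without naive replicate 1. In H9 3 rose and 3 fell. TYMS, thymidylate synthase, rose from 31.98 ± 3.46 to 58.7 ± 3.99 FPKM (log2 change 0.86, SE 0.10, adjusted p = 0.00118) and RRM2, of ribonucleotide reductase, from 45.5 ± 5.73 to 70.9 ± 1.04 FPKM (log2 change 0.64, SE 0.10, adjusted p = 0.00366). MCM3 and MCM5, of the replicative helicase, fell with log2 changes of -0.80 and -0.56 (adjusted p = 0.000504 and 0.00229). MKI67, the proliferation marker, was not called (log2 change 0.13, adjusted p = 0.318).

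Heat shock protein genes rose for 6 of 19 and fell for 1, HSPA2, with risers 3 without primed replicate 1 and 3 without naive replicate 1. In H9 3 rose and 2 fell. HSPA2 fell from 12.9 ± 6.104 to 2.78 ± 1.104 FPKM (log2 change -1.80, SE 0.41, adjusted p = 0.0129), and HSPH1, a nucleotide exchange chaperone, rose from 47.9 ± 7.08 to 74.96 ± 3.601 FPKM (log2 change 0.65, SE 0.11, adjusted p = 0.00504). Retinoic acid genes rose for 4 and fell for 4 of 14, against 22.3% and 22.1% of all genes. The counts in H9 were 4 higher and 6 lower. Of the 14, 1 passed the filter through the libraries labelled naive alone. DHRS3, which turns retinaldehyde back to retinol, fell from 16.3 ± 2.896 to 3.32 ± 0.881 FPKM (log2 change -2.01, SE 0.19, adjusted p = 0.000605), and the receptor RARG fell from 22.2 ± 2.57 to 6.71 ± 0.4199 FPKM (log2 change -1.59, SE 0.11, adjusted p = 0.000216). RDH10, which makes retinaldehyde, rose from 2.46 ± 0.116 to 8.41 ± 1.34 FPKM (log2 change 1.43, SE 0.13, adjusted p = 0.000444). NOTCH pathway genes rose for 6 and fell for 4 of 18, beside 2 higher and 4 lower in H9. HES7 was the 1 member that passed the filter through the libraries labelled naive alone. HES7, a somite-clock repressor, read 0, 0.0861 and 0.0566 FPKM in the primed libraries and 4.37, 7.83 and 3.14 in those labelled naive (log2 change 2.47, SE 0.27, adjusted p = 0.000899). HES6, an antagonist of HES1, rose from 10.7 ± 0.846 to 48.3 ± 15.03 FPKM (log2 change 2.03, SE 0.20, adjusted p = 0.000686), and JAG2, a ligand, from 1.23 ± 0.331 to 7.64 ± 4.11 FPKM (log2 change 1.86, SE 0.31, adjusted p = 0.00445). LFNG, a glycosyltransferase of the receptor, fell from 11.1 ± 2.26 to 3.08 ± 0.654 FPKM (log2 change -1.56, SE 0.17, adjusted p = 0.00101). In H9 the changes of HES7, HES6 and JAG2 were 0.02, 0.02 and -0.77, and each difference was called (adjusted p = 0.00249, 0.0182 and 0.00404).

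Rankings by size leave out short RNAs, those of loci under 300 bases or of microRNA and other small RNA genes. Beyond the lists, the largest rises among genes at 5 FPKM or more in either state included AQP1, LPPR4 and DSCR8. AQP1, the water channel aquaporin 1, read 0.186, 0.188 and 0.131 FPKM in the primed libraries and 16.7, 7.43 and 37.4 in those labelled naive (log2 change 3.94, SE 0.50, adjusted p = 0.00162). LPPR4, a brain-enriched phosphatase-related membrane protein, read 0.357, 0.401 and 0.686 FPKM in the primed libraries and 18.3, 33.3 and 13.9 in those labelled naive (log2 change 3.86, SE 0.30, adjusted p = 0.00031). DSCR8, a transcript of the Down syndrome region, read 0.271, 0 and 0 FPKM in the primed libraries and 14.3, 9.69 and 18.6 in those labelled naive (log2 change 3.77, SE 0.23, adjusted p = 0.000173). No groups overlapped for these 3. The largest falls in that ranking were those of LECT1, or chondromodulin, at 92.1, 72.4 and 83.4 FPKM in the primed libraries and 0.199, 0.241 and 0.113 in those labelled naive (log2 change -6.14, SE 0.11, adjusted p = 8.79e-06), and CBR1, a carbonyl reductase, at 41.1, 27.1 and 78.3 FPKM in the primed libraries and 0.395, 0.0958 and 0.3604 in those labelled naive (log2 change -5.15, SE 0.36, adjusted p = 0.000229). MT1H, a metallothionein with close paralogs, fell from 39.3 ± 18.5 to 0.304 ± 0.265 FPKM (log2 change -4.86, SE 0.36, adjusted p = 0.000265). GPR176, an orphan receptor, fell from 53.05 ± 3.87 to 1.63 ± 0.366 FPKM (log2 change -4.37, SE 0.12, adjusted p = 3.2e-05), AP1M2, an epithelial sorting adaptor, from 58.2 ± 5.797 to 2.48 ± 0.666 FPKM (log2 change -4.11, SE 0.16, adjusted p = 4.89e-05), and OLFM2, or olfactomedin 2, from 39.3 ± 8.23 to 1.46 ± 0.241 FPKM (log2 change -4.01, SE 0.17, adjusted p = 5.7e-05). MAL2, a transport protein of polarised epithelia, fell with a log2 change of -3.76 and PYCARD, the inflammasome adaptor ASC, with -3.70 (adjusted p = 6.21e-05 and 8.47e-05).

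By FPKM gained, with short RNAs left out, RPL39, TMSB10, BCYRN1, RPL19 and IFITM1 led. BCYRN1, the symbol of the brain cytoplasmic RNA, read 306, 294 and 381 FPKM in the primed libraries and 1379, 1423 and 1239 in those labelled naive (log2 change 2.05, SE 0.13, adjusted p = 0.000166). Its entry spans chrX:70430035-70948962, so the rule for short RNAs did not leave it out, and the source of its reads was not tested. TMSB10, or thymosin beta 10, read 905, 873 and 1110.1 FPKM in the primed libraries and 2231, 1886 and 2174 in those labelled naive (log2 change 1.13, SE 0.13, adjusted p = 0.00131). IFITM1, an interferon-induced membrane protein, rose from 324 ± 73.8 to 793 ± 116 FPKM (log2 change 1.31, SE 0.20, adjusted p = 0.00292). The ribosomal protein genes RPL39 and RPL19 rose by 0.73 and 0.39 (adjusted p = 0.00473 and 0.0398), and both have many processed copies. For RPL19, its call was lost with no filter on low values, with size factors, without primed replicate 1, without primed replicate 2, without primed replicate 3, without naive replicate 1, without naive replicate 2 and without naive replicate 3 (adjusted p = 0.0652 to 0.0917). By FPKM lost, short RNAs again left out, COX7C, ESRG, DNMT3B, SNRPN and POU5F1 led. ESRG, an embryonic stem cell transcript driven by an endogenous retrovirus, read 973, 743 and 997 FPKM in the primed libraries and 482, 391 and 422 in those labelled naive (log2 change -1.06, SE 0.15, adjusted p = 0.00216), beside -0.46 in H9 (adjusted p = 0.36).

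Some genes other than short RNAs were read in 1 state alone, defined as at least 1 FPKM in each library of one group and under 0.1 FPKM in each of the other. This held for 35 genes in the libraries labelled naive and 43 in the primed libraries. Besides HOXD13, the naive side was led by LOC100130964, an uncharacterised locus, at 0, 0 and 0 FPKM in the primed libraries and 11.6, 25.6 and 5.195 in those labelled naive (log2 change 3.67, SE 0.48, adjusted p = 0.00182). PALMD, or palmdelphin, ESX1, a homeobox gene, and NELL1, a secreted protein, followed with means of 7.23, 5.74 and 5.59 FPKM. The primed side was led by FEZF1, a zinc finger gene of the forebrain, at 14.8, 41.5 and 6.95 FPKM in the primed libraries and 0.04700, 0 and 0.0536 in those labelled naive (log2 change -4.08, SE 0.56, adjusted p = 0.00206). Its antisense transcript FEZF1-AS1 read 8.22, 24.1 and 4.65 FPKM in the primed libraries and 0.0504, 0.0611 and 0.0191 in those labelled naive (log2 change -3.39, SE 0.50, adjusted p = 0.0028). Strandedness was not given in the sources used here, and reads of these 2 overlapping genes cannot be told apart. For FEZF1, its log2 change was -3.44 without primed replicate 2, and for FEZF1-AS1, its log2 change was -2.79 without primed replicate 2. NPTX2, a neuronal pentraxin, fell with a log2 change of -2.69, TMEM132B, a membrane protein, with -2.57 and CCDC152 with -2.51 (adjusted p = 0.000156, 0.000136 and 3.89e-05).

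The state changes under the RUES2 and H9 labels were then compared gene by gene. Of the genes higher in RUES2, 1634 were also higher in H9, which is 52.9% of the RUES2 list and 65.5% of the H9 list. Of the genes lower, 2086 were lower in both, 68.3% of the RUES2 list and 66.4% of the H9 list. Opposite calls numbered 72 for genes higher in RUES2 and 25 for genes lower. The log2 changes had a Pearson r of 0.71 across the 13838 genes, which are not independent replicates. A test of the difference itself called 841 genes (6.08%), 569 with the RUES2 response above that of H9 (4.11%) and 272 below it (1.97%). This count was 459 without primed replicate 1 and 558 without naive replicate 2, and 408 when a gene had to reach 5 FPKM.

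The differences above H9 were led by MYC, LPPR4, DSCR8, LOC100130964 and SLC6A15. SLC6A15, a neutral amino acid transporter of neurons, read 1.94, 1.84 and 3.19 FPKM in the primed libraries and 13.7, 22.8 and 12.2 in those labelled naive (log2 change 2.35, SE 0.26, adjusted p = 0.000989), and in H9 it fell with a log2 change of -1.23 (adjusted p = 0.00754). LPPR4 changed by -0.43 in H9, and DSCR8 was listed at 0 in the mean of both H9 groups. Differences below H9 were led by CSRP1, CBR1, LECT1, C9orf64 and CTSF. CSRP1, a LIM protein of smooth muscle, read 12.96, 11.6 and 25.03 FPKM in the primed libraries and 1.67, 1.22 and 2.68 in those labelled naive (log2 change -2.57, SE 0.32, adjusted p = 0.00142), but rose in H9 by 3.07 (adjusted p = 0.00669). C9orf64, a queuosine salvage gene, read 9.27, 11.9 and 8.46 FPKM in the primed libraries and 0.158, 0.191 and 0.186 in those labelled naive (log2 change -3.19, SE 0.13, adjusted p = 5.78e-05), beside 0.40 in H9 (adjusted p = 0.193). CBR1 changed by 0.14 in H9 (adjusted p = 0.726) and LECT1 by -2.50 (adjusted p = 0.00121).

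**Figure D4:**
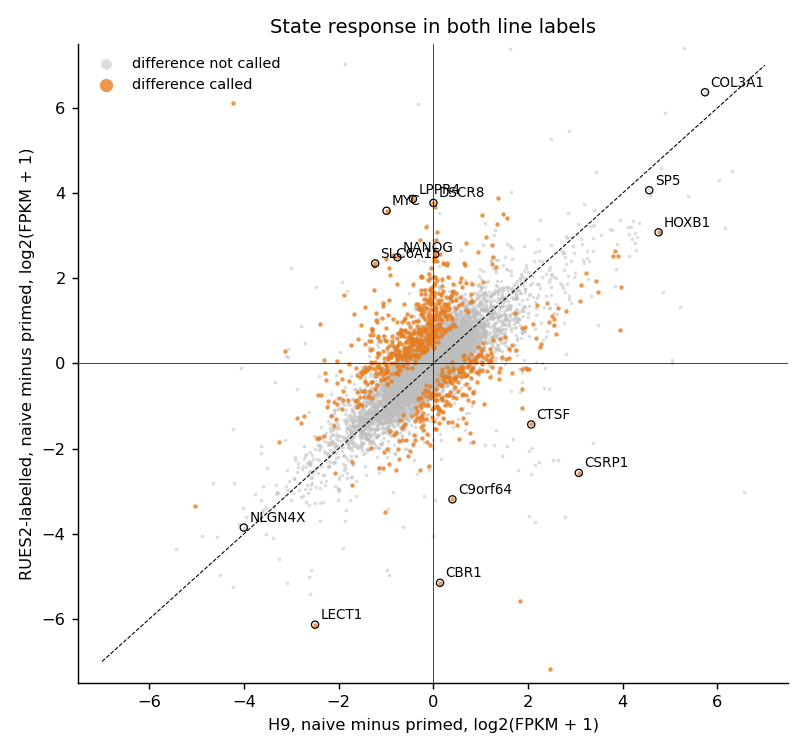
Log2 change from primed to naive in H9 (x axis) and in the RUES2-labelled libraries (y axis) for each gene, on the log2(FPKM + 1) scale, with genes whose difference was called in orange and the dashed line at equal change. Points beyond 7.5 are not drawn. SP5, COL3A1 and NLGN4X lie near the line, whereas MYC, NANOG and LPPR4 lie above it and CBR1, CSRP1 and CTSF below it.

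By position, the highest medians lay in 1 stretch of the genome, which was chosen after the values were seen. On chromosome 1 beyond 125 Mb in hg19, 606 genes were tested, and their median log2 change was 0.26, beside -0.05 in H9. Of these genes 40.4% were called higher and 15.0% lower, and 413 had a change above 0. The 756 genes of the same chromosome up to 125 Mb had a median of 0.00, and the 11618 genes of the other autosomes a median of 0.01. Against the mean of the primed libraries, the medians over the 606 genes were 0.24, 0.37 and 0.19 in the 3 libraries labelled naive. Each of the 6 H9 libraries lay between -0.04 and 0.04. Over the alternatives run, the median of the stretch ranged from 0.20 to 0.32. Genes described above that lie in the stretch include MIXL1 (chr1:226411383-226413513) and BTG2 (chr1:203274664-203278729), which rose, and CSRP1 (chr1:201452658-201476387), which fell. This is not a full list of them.

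**Figure D5:**
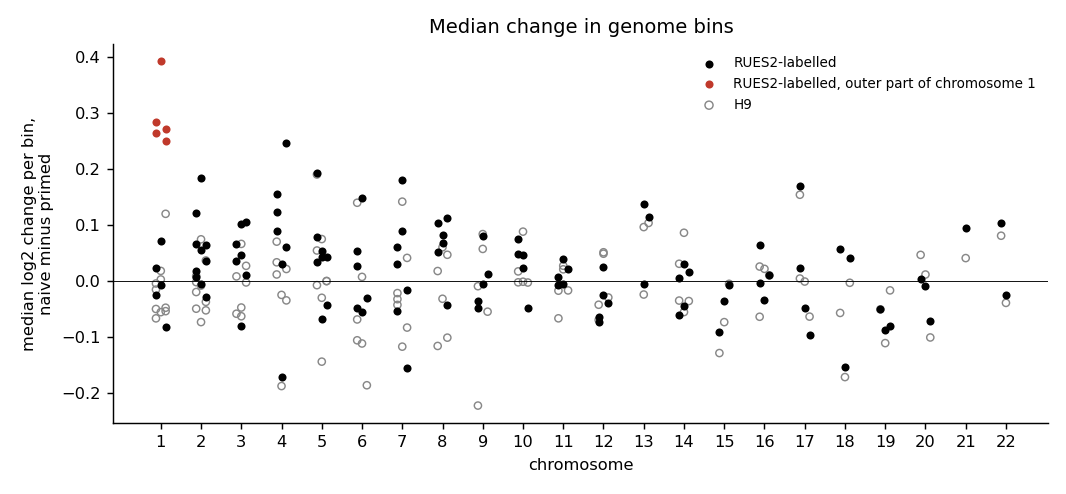
Median log2 change from primed to naive in the RUES2-labelled libraries for 112 autosomal bins of 25 Mb (y axis), in genome order by chromosome (x axis), with H9 as open circles. The 5 bins of chromosome 1 beyond 125 Mb, in red, are the 5 highest RUES2 values of the 112 bins. Chromosome 4 from 125 to 150 Mb follows closely.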

How the data were processed

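Per the labels' protocols, poly(A) RNA from picked colonies went into TruSeq libraries. The submitters' processing notes name TopHat2 2.1.1, bcl2fastq 2.17.1.14 and the build hg19, while the program that computed expression was not given in the sources used here. Values per gene are FPKM as deposited by the authors with lower and upper bounds, per the file headers, where the series' design text speaks of RPKM. Of symbols with several loci, 310 in all, the locus of highest mean was kept, and 2 genes with a failed status were left out, 1 of them a member.

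Tests ran on log2(FPKM + 1) in limma 3.58.1 (R 4.3.3; linear models, moderated variances with a trend), with Benjamini-Hochberg adjustment over all 13838 genes and a threshold of 0.05. The H9 libraries were fitted separately on the same genes, and the difference was an interaction term over the 12 libraries. The script was tested on simulated data. Tables and plots used Python 3.11.15, pandas 2.3.3, numpy 2.4.6 and matplotlib 3.10.9. Alternatives were other pseudocounts, filters, scalings and variance models, a fit of all 12 libraries, a replicate block and leaving out each library. The members and gene lists were chosen with earlier results of these data known. Named genes were a fixed set of 40, the 10 largest rises and falls at 5 FPKM or more without overlap, the 5 largest gains and losses in FPKM, up to 4 called members per list, the leading genes read in 1 state alone, and the leading line differences. Other list members were named after their values were seen. Y-linked genes and XIST are not reported. Some genes that the naming rule covers are not reported here.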

Additional observations from a re-analysis of the deposited data

Results flagged for a closer look

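The change from primed to naive differed between the RUES2 and H9 labels for 841 of the 13838 genes tested, by limma's test of the difference itself. The differences below are the RUES2 log2 change minus that of H9, and each had an adjusted p under 0.05. They rest on libraries of which 3 of the 6 labelled RUES2 did not match the others of their line label, so line and state cannot be told apart in them.

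Among regulators of pluripotency and signalling, the RUES2 change lay above that of H9 for MYC by 4.57, NANOG by 3.25, IER3 by 1.72 and SMAD9 by 1.44. It lay below H9 for ZFP42 (-0.87), AXIN2 (-1.38), FST (-1.78), FZD10 (-1.38), FZD7 (-0.85) and TCF7L2 (-0.82). The FGF receptors FGFR1 and FGFR3 lay lower too (-1.27 and -1.16). In the NOTCH pathway JAG2, HES7 and HES6 lay above H9, by 2.63, 2.46 and 2.02.

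Of developmental regulators, TWIST1 (2.51), NR2F1 (2.15), HOXD10 (2.33) and HOXD13 (1.86) rose further under the RUES2 label than in H9. HOXB1 (-1.68) and OLIG3 (-1.21) rose less, and GATA3 differed by -1.68. In retinoic acid handling DHRS3 differed by -1.26 and RARG by -0.67.

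Genes of other roles that lay above H9 were CDKN2A (1.94), B2M (1.90), GPNMB (1.08), COX7B (0.46), PMVK (0.57), SLC6A15 (3.58), LPPR4 (4.29), DSCR8 (3.77) and LOC100130964 (3.63). Those that lay below it were CSRP1 (-5.64), CBR1 (-5.29), LECT1 (-3.64), C9orf64 (-3.59), CTSF (-3.50), CCDC152 (-2.23), HELLS (-0.77) and TFE3 (-0.66).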

How the results depend on the processing

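With a floor of 5 FPKM, 9436 genes were tested, 2289 were called higher and 1916 lower, and the line difference was called for 408. Leaving out each replicate in turn gave 4513 to 5700 genes called, 2169 to 2900 higher, 2326 to 2857 lower, and 459 to 914 with a line difference. The lowest count of line differences was that without primed replicate 1, and without naive replicate 2 it was 558. Rescaling without short RNAs gave 2466 genes higher and 3335 lower and moved the median of all genes to -0.05. Size factors gave 2843 and 3239, and quantile normalization 3129 and 3050. Among 183 named genes called, none lost its call with a pseudocount of 0.1 or 0.5, but 70 and 37 moved by over 1.5-fold, each away from 0.

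Genes not called changed sign. Leaving out each library in turn, DPPA3 ranged from -0.15 (without naive replicate 1; -0.03 without primed replicate 2) to 0.66, DPPA5 from -0.65 to 0.0093 (without primed replicate 3) and ZIC2 from -0.43 to 0.18 (without primed replicate 2). ETV4 ranged from -0.64 to 0.11 (without primed replicate 3), CTNNB1 from -0.14 to 0.0091 (without primed replicate 2) and GSK3B from -0.019 (without primed replicate 3) to 0.13, and GSK3B was at -0.014 after rescaling. The causes were not tested. Same-numbered replicates did not deviate together (correlations -0.03, 0.11 and 0.07), so the numbers do not pair the libraries. In a fit with the replicate block 5423 genes were called, 2698 higher and 2725 lower, 745 differed between the line labels, and 6 of the 183 named genes were no longer called, POU5F1 among them. Genes near 1 FPKM rest on few fragments, and without read counts their counting error was not modelled.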

Other observations

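The miR-302 and miR-367 cluster encodes microRNAs abundant in primed human embryonic stem cells, and the rule for named genes leaves short RNAs out. It is given here after its values were seen. MIR302D read 1308, 795 and 1781 FPKM in the primed libraries and was listed at 0 in each library labelled naive (adjusted p = 3.2e-05 in limma). MIR367 read 654, 2582 and 1385 FPKM in the primed libraries and 0, 236 and 0 in those labelled naive (adjusted p = 0.0251). The neighbours MIR302A, MIR302B and MIR302C were not called. These loci are shorter than a library fragment and the libraries hold poly(A) RNA, so the values do not measure mature microRNAs.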
